A study of Mus musculus with 6 samples.

Results

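Naive and quiescence genes of T cells were followed on 6 oligonucleotide arrays of mouse CD4+ T cells, in 3 groups of 2 arrays labelled RA, Ro and Control. The 10 genes were Klf2, S1pr1, Ccr7, Tcf7, Lef1, Foxo1, Satb1, Bach2, Dapl1 and Cnr2. A probe set was taken where the platform annotation gives it exactly 1 gene symbol and that symbol is one of these. This found 19 probe sets of 45101 on the array, for 9 of the 10 genes, and Tcf7 was not analysed here. Of the 19 probe sets 18 passed the filter on dim signals and were tested, among 29507 tested probe sets in all. One Foxo1 probe set (1456529_at) stayed at signals from 0.576 to 4.89 and was left out.

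The cells came from mouse spleen with peripheral and mesenteric lymph nodes and were cultured before RNA was taken. RA is read as retinoic acid because the series is titled for it, and Ro is left unexpanded. The labels give no strain, age, sex or dose for any group. Only Control replicate 2 carries a culture protocol, 5 days with human IL-2 and TGF-b1, mouse IL-6, IL-1b, IL-23, IL-21 and TNF-a, and antibodies against IL-4 and IFN-gamma. The labels of the other 5 arrays, Control replicate 1 among them, have no such entry, so their medium is not known. Whether the groups, or the Control replicates, differed in medium cannot be told. In comparisons with Control the culture medium and the group label therefore cannot be told apart.

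A naive T cell is one that has not met its antigen. It recirculates between blood and lymphoid organs and is held in a non-dividing, quiescent state by transcription factors that keep its homing receptors on and effector genes off. After activation many of these genes are shut down, and some return in memory cells. In mouse T cells FOXO1 drives Klf2, and KLF2 in turn drives S1pr1, whose receptor lets T cells leave lymph nodes. CCR7 leads them in. LEF1 and TCF7 are related HMG-box factors of naive and memory cells, SATB1 organises chromatin in developing and resting T cells, and BACH2 represses effector genes. Dapl1 is a naive T cell transcript, and Cnr2 encodes the cannabinoid receptor of immune cells.

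The arrays were not alike. Log2 signals on Control replicate 2 correlated with the other arrays at 0.869 to 0.880 over tested probe sets, and the other 5 with one another at 0.947 to 0.970. The median signal of an array ran from 16.3 to 23.8 arbitrary units. T cell identity markers were bright throughout: the summed signal of 11 markers was 36910 and 35130 in RA, 37230 and 43790 in Ro, and 39070 and 30960 in Control. Cd4 itself had 1308 and 1141 in RA, 1387 and 1791 in Ro, and 1476 and 463 in Control, so the labelled cell type was borne by its markers. Most of the 11 markers were lowest on Control replicate 2, but Thy1 was highest there (7555, against 3542 to 4675 on the others). Cd2 and Lat lay within the range of the other arrays. B cells also express Bach2 and Cnr2, but B cell markers stayed dim: 9 had a probe set, 6 of them were tested, and no marker exceeded a signal of 52.5 in RA, 37.9 in Ro or 84.5 in Control. In bulk RNA of this kind, fewer cells of a type and less RNA per cell cannot be told apart.

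Promoter windows of RefSeq (GRCm38.p6, from 250 bases before to 50 after a gene start) were found for 8 of the 10 genes. Those of Dapl1 and Klf2 are shown as examples. Both genes were far lower on Control replicate 2, Dapl1 by the largest fold among the members. S1pr1, which had no window, and Cnr2, not shown, were far lower there too. Letters in capitals match TGTTTAC, a FOXO motif, or CACCC, a motif of KLF factors, on either strand. The motifs do not overlap each other here.

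Dapl1, chr2:59484403-59484702, + strand: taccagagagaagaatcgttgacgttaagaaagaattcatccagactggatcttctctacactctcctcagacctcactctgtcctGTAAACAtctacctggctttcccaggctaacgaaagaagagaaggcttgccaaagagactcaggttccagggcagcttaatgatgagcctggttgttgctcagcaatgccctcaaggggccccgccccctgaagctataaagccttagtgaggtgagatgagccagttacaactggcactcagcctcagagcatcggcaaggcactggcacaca
Klf2, chr8:72318812-72319111, + strand: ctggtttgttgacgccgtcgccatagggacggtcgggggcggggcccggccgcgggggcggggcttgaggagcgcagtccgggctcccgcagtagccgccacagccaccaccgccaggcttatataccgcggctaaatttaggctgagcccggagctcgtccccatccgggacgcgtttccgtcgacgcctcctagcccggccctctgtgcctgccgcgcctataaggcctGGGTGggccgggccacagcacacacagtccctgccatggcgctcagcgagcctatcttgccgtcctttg

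The Dapl1 window holds 1 match to TGTTTAC, on the strand opposite to the gene, at bases 87 to 93 of the window. That motif occurs in 3.65% of the 32851 windows of the same length. The Klf2 window holds 1 match to CACCC, also on its minus strand, and 57.52% of all windows hold one. CACCC is also in a Cnr2 window and in windows of Lef1, Satb1 and Tcf7, and a Tcf7 window holds TGTTTAC. The Foxo1 and Bach2 windows hold neither motif. Motif matches were not tested against the signals. AGGTCA, the repeated unit in retinoic acid receptor sites, is in neither window shown, but a Satb1 window and a Tcf7 window hold it. It is in 16.26% of all windows. Its direct repeat with 5 free bases between the copies was in no member's window and in 3 of all windows.

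Among the transcription factors and targets of the FOXO1 and KLF2 axis, the RA and Ro arrays overlapped for Klf2 and S1pr1, while Control replicate 2 stood far below. Klf2, a zinc finger factor of quiescence, had signals of 3956 and 3995 in RA, 3724 and 5349 in Ro, and 4795 and 825 in Control. The 2 RA arrays lay inside the range of the Ro arrays, and the Control arrays lay on either side of both groups but for the brightest Ro array. Against the lowest of the other 5 arrays, Control replicate 2 was 4.51-fold lower. S1pr1, the sphingosine phosphate receptor for exit from lymph nodes, had 1019 and 1461 in RA, 1177 and 2539 in Ro, and 1606 and 193 in Control. The groups overlapped in every pairing, Ro replicate 2 was the highest array, and Control replicate 2 was 5.28-fold under the lowest of the rest. Foxo1, the forkhead factor above both in the pathway, had 823 and 1224 in RA, 1128 and 1953 in Ro, and 1028 and 711 in Control. Here Control replicate 2 was only 1.16-fold under the lowest other array, and both Ro arrays were above both Control arrays. On the other tested Foxo1 probe sets Ro replicate 2 was again highest and Control replicate 2 lowest, but on one of them (1416982_at) a Ro array at 514 lay below a Control array at 536.

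The 3 groups did not overlap for Ccr7. The gene encodes the chemokine receptor that guides T cells into lymph nodes. Its signal was 2400 and 2847 in RA, 4315 and 4588 in Ro, and 3457 and 3144 in Control. RA was thus lowest, Control between, and Ro highest, with means of 2623 ± 316 in RA, 4451 ± 193 in Ro and 3301 ± 221 in Control (SD, n = 2 each). Control replicate 2, low for most members, lay among the other arrays for this gene. After each array was centred on its median log2 value, the RA arrays still lay below the arrays of both other groups, while Ro and Control overlapped.

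Lef1 gave a different picture by probe set. The representative one (1454734_at, the brighter) had signals of 2405 and 3001 in RA, 2537 and 3847 in Ro, and 2982 and 1242 in Control. RA and Ro overlapped on it, and Control replicate 2 was 1.94-fold under the lowest other array. The other (1421299_a_at) had 1750 and 1048 in RA, 717 and 1377 in Ro, and 2219 and 567 in Control. On it RA exceeded Ro in mean signal by 1.34-fold with the arrays overlapping, whereas on the representative one RA was at 0.847 of Ro, so the direction for Lef1 depends on the probe set.

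Satb1 and Bach2 had narrower ranges on their representative probe sets. Satb1, the chromatin organiser, had 4128 and 4325 in RA, 5012 and 5862 in Ro, and 5200 and 3832 in Control on its representative probe set. RA lay below Ro without overlap there and on 2 of the other 4 probe sets (after centring, on the representative one alone). Against Control, RA lay inside the range on the representative probe set and below both arrays on 1416008_at. The 5 Satb1 probe sets differed on Control replicate 2: 1439449_at was 3.48-fold under the lowest other array (291 against 1014 to 1715), while 1416008_at had 2978, within the range of the rest. Bach2, the repressor of effector genes, had 1260 and 1622 in RA, 1493 and 2157 in Ro, and 1685 and 813 in Control, with RA and Ro overlapping and Control replicate 2 lowest. A dim further Bach2 probe set (1445460_at) ran from 43.0 to 72.3 and did not follow the other 2.

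Dapl1 made the widest range of all members. It had 2104 and 2107 in RA, 2054 and 3426 in Ro, and 2565 and 24.5 in Control. The RA arrays were almost equal and lay between the Ro arrays. Control replicate 2 was 84.0-fold under the lowest other array, rank 13 among 12986 tested genes by that fold. Cnr2, which encodes the cannabinoid receptor, had 54.7 and 112 in RA, 126 and 218 in Ro, and 119 and 10.1 in Control. RA was lower than Ro on every array, and lower than Control replicate 1. The 2 RA arrays differed by 2.05-fold, about as much as the group means of RA and Ro, where Ro was 2.06-fold higher. On Control replicate 2 Cnr2 was just above the filter threshold of that array (9.69), so the size of its 5.40-fold difference from the lowest other array is uncertain.

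**Figure D1:**
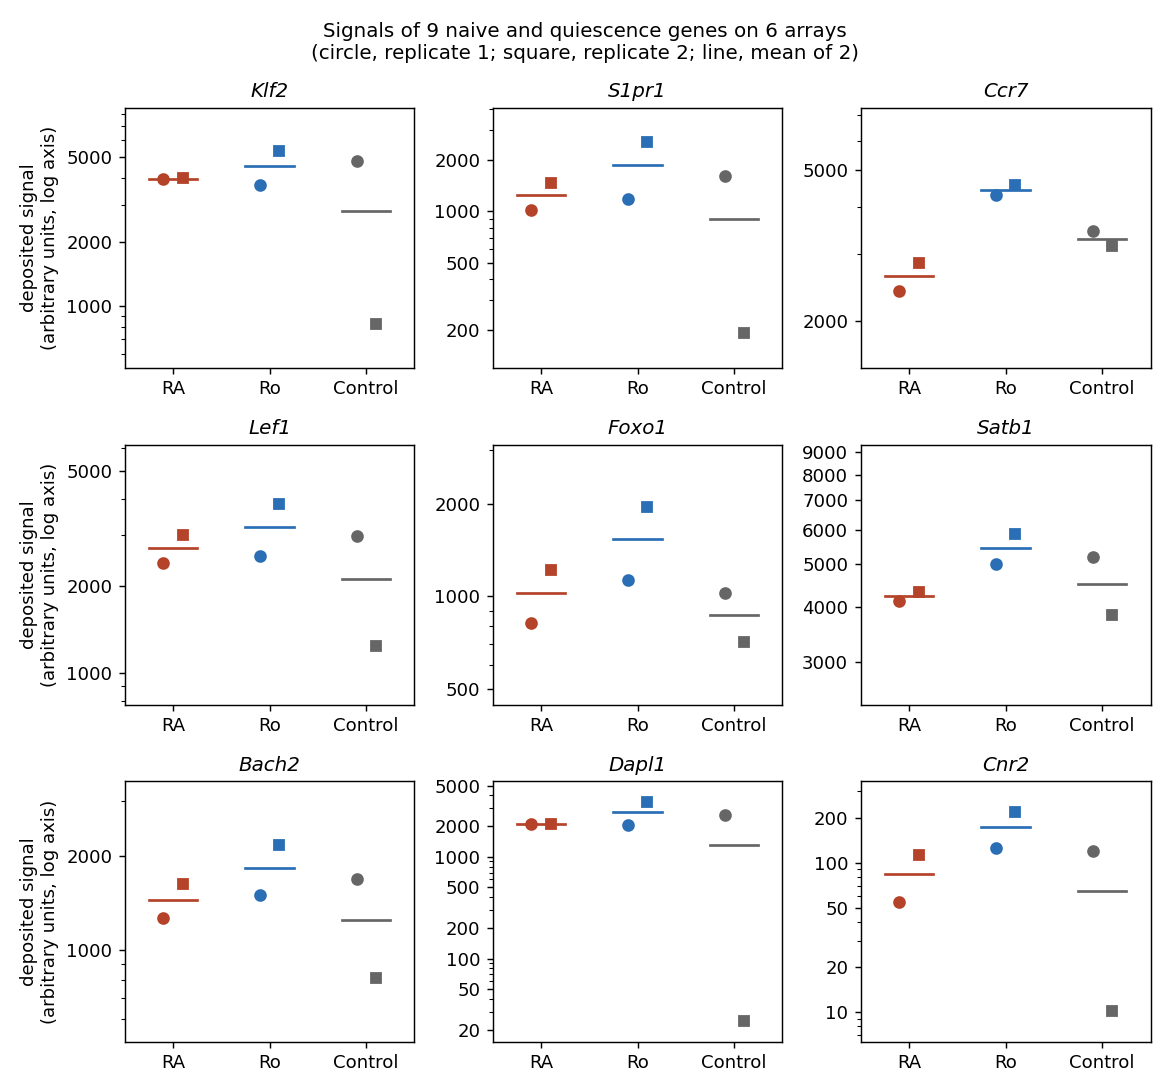
Deposited signals (arbitrary units, log axis) of the brightest tested probe set of 9 genes in RA, Ro and Control; circles are replicate 1, squares replicate 2 and lines the mean of 2 arrays. Control replicate 2 is far below all other arrays for Klf2 (825), S1pr1 (193), Dapl1 (24.5) and Cnr2 (10.1), while Ccr7 separates the 3 groups.

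Read by array instead of by group, 2 arrays stood apart for the 9 genes. Control replicate 2 was the lowest of the 6 arrays for 8 of 9 members, against 50.7% of all tested genes, and for 6 of 9 after centring, against 27.5%. It was at least 2-fold under every other array for 4 of 9 (Klf2, S1pr1, Dapl1 and Cnr2), against 15.3% of genes. Ro replicate 2 was the highest for 9 of 9 as deposited, against 36.2% of genes, and for 7 of 9 after centring, against 18.6%. The exceptions after centring were Ccr7 and Satb1, for which Control replicate 2 was highest. These counts are over arrays chosen after their values were seen and carry no test.

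**Figure D2:**
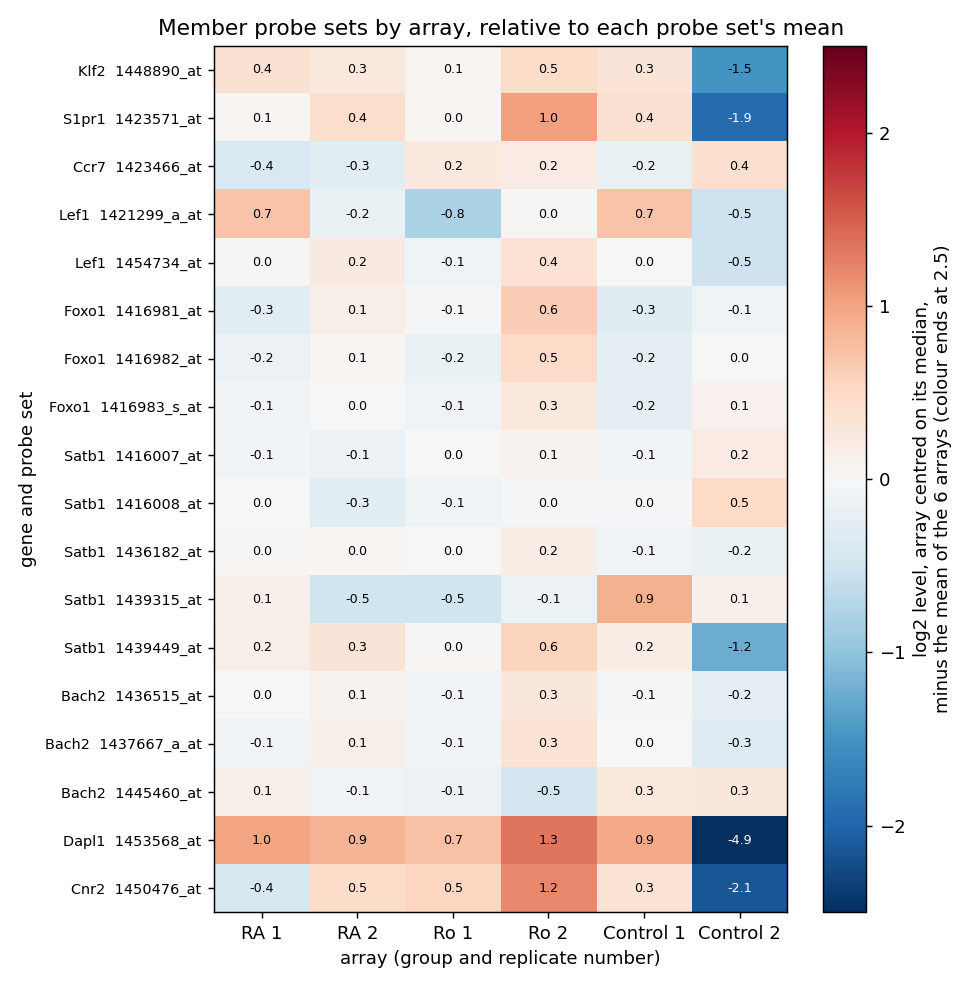
Log2 level of the 18 tested member probe sets on each array, with the array centred on its median and each row on its own mean; red is above and blue below the row's mean. Control replicate 2 is blue for Klf2, S1pr1, Dapl1 and Cnr2 and not for Ccr7, and Ro replicate 2 is the reddest array for S1pr1, Foxo1 and Cnr2.

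The comparison of RA with Ro asks whether these genes differ between cultures with the 2 labels. No member changed past the threshold. With limma on all 6 arrays 0 of 18 member probe sets had an adjusted p under 0.05, as did 0 of all 29507 (0%), and at an unadjusted p under 0.05 there was 1 of 18 (that of Ccr7), against 1.68%. Differences are given on the log2(signal + 2.999) scale, relative to the median of all tested probe sets, which was -0.21 for RA minus Ro as deposited. The p-values are for the differences as deposited, without that correction. Ccr7 stood at -0.55 (SE 0.22, limma adjusted p = 0.999), with both RA arrays lower. Cnr2 stood at -0.84 (SE 0.98), and at -0.40 without RA replicate 1, -1.27 without RA replicate 2, -1.15 without Ro replicate 1 and -0.49 without Ro replicate 2. Foxo1 stood at -0.35 (SE 0.40), and at -0.67 without Ro replicate 1, -0.57 without RA replicate 2, -0.13 without RA replicate 1 and -0.0018 without Ro replicate 2. For Klf2 the difference was 0.05 (SE 0.71) and for Dapl1 -0.12 (SE 1.76), so these data leave differences of either sign possible. The median over the 9 members was -0.12, with 7 of 9 below the median tested gene, and all tested genes had quartiles of -0.23 and 0.25. Without Ro replicate 2 that median turned to 0.15, and without Ro replicate 1 it was -0.41.

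The unlike Control arrays enter those errors. In a fit without the Control arrays limma called 12 of 27878 probe sets (0.0430%) and again 0 of 18 member probe sets. The SE of Klf2 was 0.18 there and that of Dapl1 0.25. Ccr7 had a difference of -0.55 (SE 0.15, unadjusted p = 0.00122, limma adjusted p = 0.443), Cnr2 -0.83 (SE 0.43, limma adjusted p = 0.673) and Satb1 -0.14 (SE 0.13, limma adjusted p = 0.673). These 3 genes had an unadjusted p under 0.05 and were lower in RA, each on 1 probe set, 3 of 18 against 6.35%, and none was higher, against 0.929%. These p-values hold the general shift between the groups. With each of the 4 arrays centred, only Ccr7 kept an unadjusted p under 0.05 (limma adjusted p = 0.943), 1 of 18 lower against 2.60%, and 0 higher against 2.06%. The same 3 genes were those for which both RA arrays lay under both Ro arrays, 3 of 9 against 37.7% of tested genes, and after centring 3 of 9 against 20.2%. With 9 genes, neither count is read as a difference between the members and all genes. No member was higher on both RA arrays on its representative probe set, against 6.31% of genes as deposited and 15.0% after centring. The dim Bach2 probe set 1445460_at, not representative, was higher on both RA arrays after centring. With 2 arrays against 2, an exact permutation test of 1 gene cannot give a two-sided p under 0.333.

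**Figure D3:**
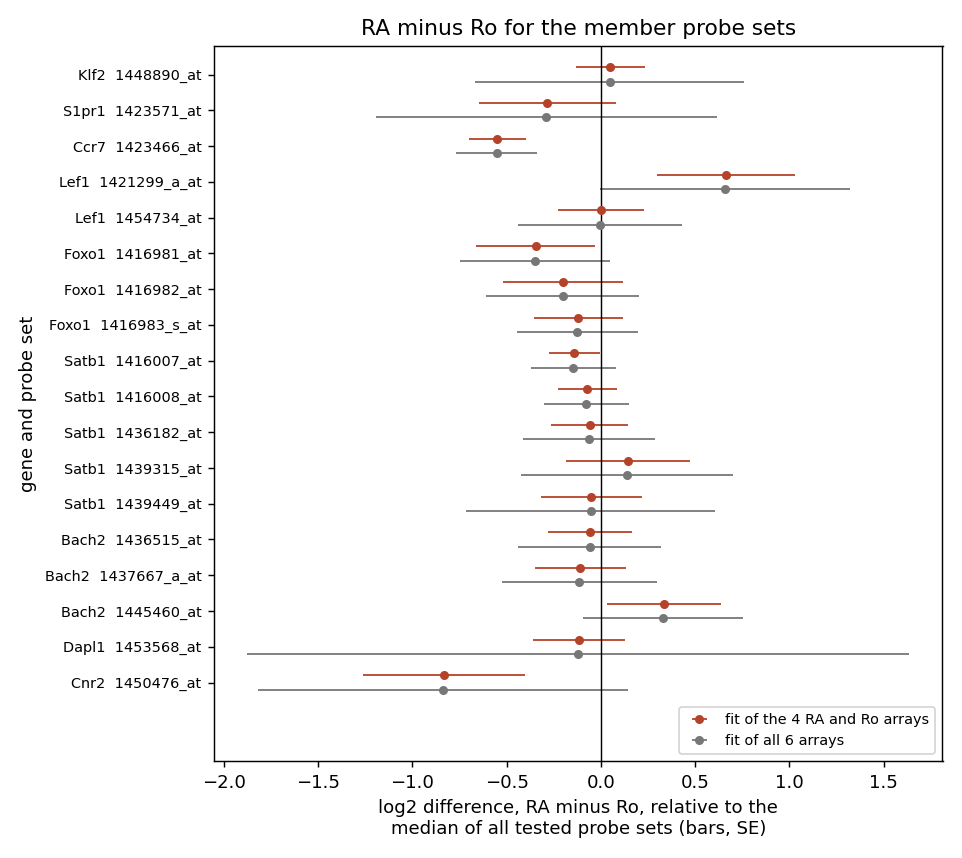
Log2 difference, RA minus Ro, of the 18 tested member probe sets relative to the median of all tested probe sets, in limma fits of the 4 RA and Ro arrays (red) and of all 6 arrays (grey); bars are SE. Ccr7 lies at -0.55 in both fits, Cnr2 at -0.83 and -0.84, and most other probe sets lie within 1 SE of 0 in the fit of all arrays.

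In the comparison of RA with Control, Klf2, S1pr1, Dapl1 and Cnr2 had higher means in RA and Ccr7 a lower one, with no call. Dapl1 averaged 2106 ± 2.55 in RA and 1295 ± 1796 in Control (SD, n = 2 each), where the SD of Control comes from its replicates at 2565 and 24.5. The log2 difference was 2.90 (SE 1.76) for Dapl1, 1.04 (SE 0.90) for S1pr1, 0.91 (SE 0.71) for Klf2 and -0.42 (SE 0.22) for Ccr7, all with a limma adjusted p = 0.977. With limma 0 of 18 member probe sets and 0 of 29507 in all (0%) passed, and 0 of 18 had an unadjusted p under 0.05, against 1.81%. The fit of the 4 arrays called 0 as well. The median over the members was 0.38. Both RA arrays were below both Control arrays for 1 of 9 genes, Ccr7, against 15.0% of genes, and above for 0 of 9, against 11.7%. After centring Ccr7 was still below (10.6% of genes) and Lef1 above (18.8% of genes), by representative probe sets. The other Lef1 probe set overlapped. RA was also above Control on Satb1 1436182_at and Bach2 1436515_at, and below it on Bach2 1445460_at.

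The higher means in RA rest on Control replicate 2. Without it the RA minus Control difference was -0.07 for Klf2, -0.20 for S1pr1, -0.09 for Dapl1, -0.38 for Cnr2 and -0.21 for Ccr7, none with a limma adjusted p under 0.05, and the members' median turned to -0.14. Against Control replicate 2 alone the differences were 1.91 for Klf2 (limma adjusted p = 0.00161), 2.28 for S1pr1 (limma adjusted p = 0.010), 0.75 for Lef1 (limma adjusted p = 0.0343), 5.91 for Dapl1 (limma adjusted p = 1.76e-04) and 2.28 for Cnr2 (limma adjusted p = 0.0171), and these 5 of 9 genes passed as higher in RA, against 12.0% of 12733 genes in the same fit. That fit takes the spread of a single Control array from the RA and Ro arrays.

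The comparison of Ro with Control shares the Control arrays with the one above. Cnr2 averaged 172 ± 65.3 in Ro and 64.4 ± 76.8 in Control (SD, n = 2 each), a log2 difference of 1.79 (SE 0.98, limma adjusted p = 0.662). Ccr7 stood at 0.15 (SE 0.22), Foxo1 at 0.51 (SE 0.40), S1pr1 at 1.34 (SE 0.90), Klf2 at 0.88 (SE 0.71) and Dapl1 at 3.04 (SE 1.76), and the members' median was 0.48. With limma 0 of 18 member probe sets and 0 of 29507 in all (0%) were called, and 0 of 18 had an unadjusted p under 0.05, against 4.07%. The fit of the 4 arrays called 0 as well. Both Ro arrays were above both Control arrays for 3 of 9 genes, Ccr7, Foxo1 and Cnr2, against 30.7% of genes, and below for 0 of 9, against 8.50%. After centring Foxo1 and Cnr2 stayed above on their representative probe sets (22.5% of genes) and none was below (12.6% of genes). Other tested probe sets differed after centring. Ro was above Control on Satb1 1436182_at, below it on Satb1 1416008_at and 1439315_at and Bach2 1445460_at, and overlapped on the other Foxo1 ones. Without Control replicate 2 the members' median was -0.03. The single-gene differences without it were 0.0012 for Dapl1, 0.059 for S1pr1, -0.15 for Klf2, 0.42 for Cnr2, 0.48 for Foxo1 and 0.32 for Ccr7. Against Control replicate 2 alone 6 of 9 genes passed as higher in Ro, Bach2 beside the 5 named for RA, against 23.4% of genes in the same fit.

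Other genes of the naive and quiescent states also had their lowest median level on Control replicate 2. That was not particular to them. The cell cycle, T cell identity, B cell, mast cell and basophil, and myeloid lists were lowest there too, while the activation list and the CD8 and NK list were highest. Within the naive and quiescence lists Igfbp4, Treml2, Tob2 and Klf4 had their highest signal on that array. Gata3 and Prdm1, of the activation list, had their lowest signal there. Of 14 further naive T cell genes 12 were tested, and of 18 further quiescence regulators 17, and limma called none in any comparison over all probe sets. For RA minus Ro 6 of 12 naive genes and 12 of 17 quiescence regulators were below the median tested gene, with list medians of 0.05 and -0.06. Id3, an inhibitor of E proteins kept on in naive and memory cells, had 874 and 747 in RA, 532 and 614 in Ro, and 1113 and 172 in Control, and Slamf6, a surface receptor of less differentiated T cells, 1474 and 1221 in RA, 930 and 1085 in Ro, and 1700 and 347 in Control. For both genes the RA arrays were above the Ro arrays. They were the 2 of 12 naive genes with that pattern, against 6.31% of all tested genes. Lower on both RA arrays were 4 of 12, against 37.7%. Il7r, the interleukin-7 receptor chain and a FOXO1 target, had 1843 and 2731 in RA, 1670 and 3569 in Ro, and 2173 and 1767 in Control. Tob1, an antiproliferative gene, had 289 and 261 in RA, 372 and 574 in Ro, and 342 and 76.1 in Control, and Btg2, of the same family, 1499 and 1473 in RA, 1111 and 1639 in Ro, and 1612 and 702 in Control.

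Activation and proliferation genes were measured beside them. The median level of 17 activation and effector genes, as log2 with the array centred, was 2.31 and 2.49 in RA, 2.86 and 2.39 in Ro, and 2.23 and 4.06 in Control. The median of 13 cell cycle genes was 5.07 and 4.45 in RA, 4.84 and 3.11 in Ro, and 3.80 and 1.94 in Control. The members' own median was 4.83 and 4.70 in RA, 4.58 and 5.19 in Ro, and 4.79 and 3.86 in Control. Ro replicate 2, highest for most members, was the array with the lowest cell cycle median after Control replicate 2, which was lowest for members and cell cycle genes and highest for activation genes. Plk1, a mitotic kinase gene, had 1303 and 873 in RA, 1255 and 332 in Ro, and 687 and 85.8 in Control, and Tk1, a gene of DNA synthesis, 916 and 646 in RA, 1496 and 148 in Ro, and 366 and 165 in Control. Tbx21, the Th1 master factor, had 36.8 and 185 in RA, 223 and 299 in Ro, and 110 and 143 in Control, and Ahr, a ligand-bound factor of Th17 cells, 22.4 and 26.7 in RA, 59.6 and 42.2 in Ro, and 41.8 and 552 in Control. The part of proliferation or activation in the members' levels was not tested.

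**Figure D4:**
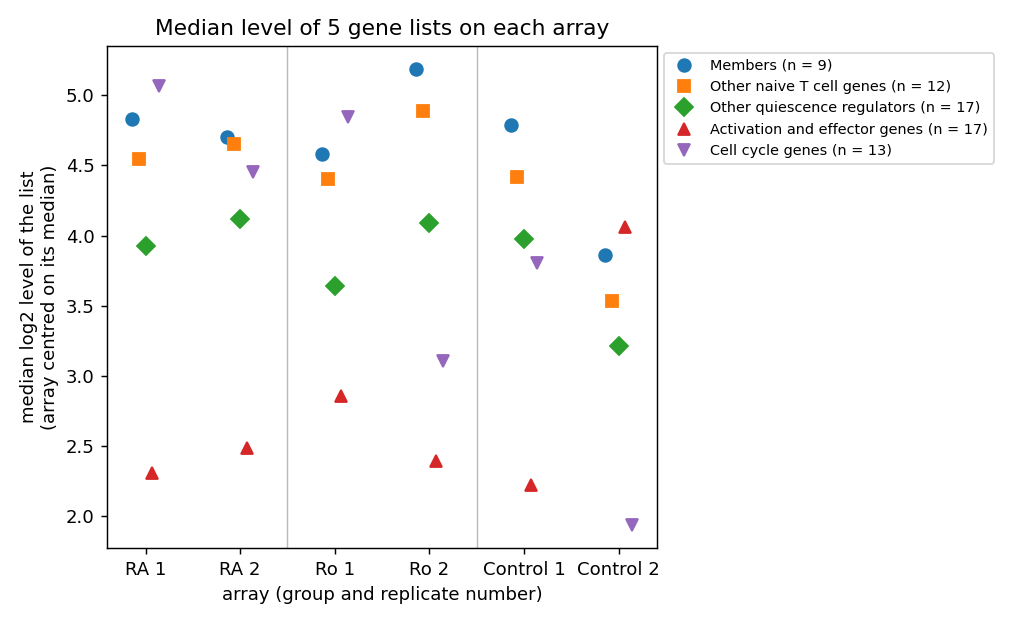
Median log2 level of 5 gene lists on each array, with the array centred on its median; n is the number of genes tested in the list. On Control replicate 2 the members (3.86) and the cell cycle genes (1.94) are lowest and the activation genes (4.06) highest, and on Ro replicate 2 the members are highest (5.19) while the cell cycle genes stand at 3.11.

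Markers of other cells also differed between the arrays. The summed signal of 8 mast cell and basophil markers was 1603 and 1369 in RA, 5961 and 3825 in Ro, and 3914 and 163 in Control. All 8 were lower on both RA arrays than on both Ro arrays (7 of 8 after centring). Of all tested genes 37.7% had that pattern as deposited and 20.2% after centring. Cma1, the mast cell chymase gene, had 33.9 and 43.9 in RA, 492 and 518 in Ro, and 75.9 and 3.30 in Control (limma adjusted p = 0.0240 for RA minus Ro in the fit of 4 arrays), and the tryptase gene Tpsb2 1.93 and 2.42 in RA, 48.8 and 35.3 in Ro, and 23.1 and 3.09 in Control. The sum of 8 myeloid markers was 514 and 491 in RA, 1055 and 399 in Ro, and 1703 and 175 in Control, with the macrophage gene Adgre1 at 47.6 and 58.4 in RA, 122 and 68.1 in Ro, and 125 and 12.9 in Control, and the dendritic cell integrin gene Itgax at 16.8 and 26.3 in RA, 17.3 and 16.1 in Ro, and 25.1 and 30.1 in Control. CD8 and NK markers differed among themselves on Control replicate 2, where Cd8a, Klrd1 and Nkg7 were highest of the 6 arrays and Eomes lowest. The sum of 5 CD8 T cell and NK cell markers was 768 and 1132 in RA, 2812 and 1412 in Ro, and 832 and 4934 in Control. Cd8a had 4.29 and 6.47 in RA, 15.6 and 23.2 in Ro, and 11.4 and 236 in Control, and Klrd1, a receptor chain of NK and effector T cells, 223 and 322 in RA, 887 and 565 in Ro, and 232 and 2060 in Control. The B cell genes Cd22 and Ms4a1 had means of 5.43 and 9.67 in RA, 27.1 and 25.7 in Ro, and 14.7 and 11.9 in Control. The tested B cell list was split for RA minus Ro, with 3 of 6 above the median gene, and Cd79b was higher in RA (52.5 and 39.3) than in Ro (22.6 and 31.0). Cd3g and Zap70, genes of T cell receptor signalling, had 4784 and 4230, and 2060 and 1736, in RA, 4173 and 4383, and 1623 and 2113, in Ro, and 4764 and 3778, and 2120 and 786, in Control. The part of these cells in the members' differences was not tested.

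Each member was also matched to the non-member gene with the most similar profile, by the root mean square difference of centred log2 values over the 6 arrays. The nearest genes were Zfp949 for Klf2, Mark4 for S1pr1, Tmem123 for Ccr7, Ttpal for Lef1, Smap2 for Foxo1, Caap1 for Satb1, Rc3h1 for Bach2, Itgb3 for Dapl1 and Gbp8 for Cnr2. Their root mean square differences ran from 0.03 for Bach2 to 0.20 for Dapl1. Tmem123 had 561 and 697 in RA, 976 and 1147 in Ro, and 768 and 747 in Control, the order of groups seen for Ccr7. Itgb3, an integrin beta chain, had 1643 and 2137 in RA, 2349 and 2732 in Ro, and 2089 and 20.7 in Control. Among the members themselves Lef1 and Bach2 were most alike (0.10), while the nearest member to Dapl1, Cnr2, was at 1.29. All these profiles share the same 6 arrays and their scaling.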

How the data were processed

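The authors deposited linear intensity values for 45101 probe sets; MAS5 is named in the submitters' processing notes, without version, scaling target or detection calls. Genes were named from the platform annotation. Tested probe sets exceeded their array's 40th percentile on 2 or more arrays, which left 29507 probe sets and 12986 genes, and 64 control probe sets were left out. A fold here is a ratio of deposited signals. Log2(signal + 2.999) was fitted with limma 3.58.1 in R 4.3.3 (intensity trend, 3 residual degrees of freedom, two-sided, Benjamini-Hochberg over all tested probe sets, threshold 0.05), and again on the 4 arrays of each pair of groups. The pseudocount, the 20th percentile of all values, makes differences of dim genes look smaller. The scripts were tested on simulated data.

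A gene was represented by its brightest tested probe set without cross-hybridisation marks. Medians of lists are relative to the median tested gene. All members were named whatever their values, and of each other list up to 4 genes past the threshold, otherwise the 2 with the largest RA minus Ro difference, with Il7r added. Cd4, Thy1, Cd2, Lat, Cd79b, Nkg7, Eomes, Igfbp4, Treml2, Tob2, Klf4, Gata3 and Prdm1 were named after their values were seen. Members and lists were chosen with earlier results of these data known. Titles gave groups and replicate numbers, with RO and Ro taken as 1 group. The labels do not say that replicates are separate cultures, so the p-values cover the spread among these arrays alone, possibly technical. No pair of arrays was identical (at most 0.00443% of values agreed). The number of arrays limits the precision. Alternatives were other pseudocounts, normalizations, filters, variance models and probe set rules, a replicate block, and leaving out each array. Leaving out arrays and centring in the 4-array fits were added after seeing the data.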

Additional observations from a re-analysis of the deposited data

How the results depend on the processing

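The number of arrays and the unlike Control replicates set the limits here. For all 6 arrays the limma count for RA minus Ro was 0 under the other pseudocounts, filters, normalizations, variance model and block, and 12 in the fit of the 4 arrays. Without 1 array it ran from 0 to 12, the 12 without either Control array. A rule of at least 2-fold without overlap met 1773 probe sets for RA minus Ro, 2136 for RA minus Control and 2915 for Ro minus Control. Without 1 array the counts ran from 0 to 4372 for RA minus Control and from 0 to 7211 for Ro minus Control, the high ends without Control replicate 1. In the 4-array fits of RA minus Ro, without an intensity trend 0 passed, with the replicate block 106, and without 1 array 0 to 551 (0 without either RA array, 551 without Ro replicate 1 and 425 without Ro replicate 2). For RA minus Control the block gave 56 and leaving out 1 array 0 to 8048 (8048 without Control replicate 1, 31 without Control replicate 2 and 1 without RA replicate 2), and for Ro minus Control the block gave 93 and leaving out 1 array 0 to 4942 (the high end without Control replicate 1), against 0 each. Replicate numbers share only a number: differences between replicates correlated at 0.249 between RA and Ro, 0.00477 between Control and RA and -0.029 between Control and Ro. The members' median without 1 array ran from -0.41 to 0.15 for RA minus Ro, from -0.14 to 0.79 for RA minus Control and from -0.027 to 0.83 for Ro minus Control.

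The settings for single members followed representative probe sets. On another Satb1 probe set (1439315_at) RA minus Ro was 0.14 (SE 0.56) with all 6 arrays. The remaining non-representative Satb1 ones lay from -0.077 to -0.054. Of single members, Ccr7, Foxo1, Satb1 and Cnr2 stayed negative for RA minus Ro in all 16 settings tried, Foxo1 only just (-0.0018) without Ro replicate 2. Many of these settings could move such a value little or not at all. Centring all arrays, the variance model and the block leave it unchanged. The filters, the 4-array fits and leaving out a Control array change only the subtracted median. Ccr7 ran from -0.61 to -0.49, with limma adjusted p from 0.337 to 1.00. Values near 0 turned sign. Klf2 for RA minus Ro was -0.0033 with a pseudocount at the median and -0.0020 with no filter, and -0.14 to 0.26 without 1 array. Lef1 was 0.0043 with a pseudocount of 1, 0.0080 after quantile normalization, 0.029 with the stricter filter, 1.25e-05 with the 4 arrays alone or centred, and -0.23 to 0.25 without 1 array. Without 1 array S1pr1 ran from -0.77 to 0.22, Bach2 from -0.30 to 0.10 and Dapl1 from -0.41 to 0.20, each positive without Ro replicate 2 (0.22, 0.10 and 0.20). For RA minus Control, without 1 array Klf2 ran from -0.074 to 1.91, S1pr1 from -0.20 to 2.28, Foxo1 from -0.075 to 0.34, Bach2 from -0.040 to 0.45, Dapl1 from -0.088 to 5.91 and Cnr2 from -0.38 to 2.28. For Ro minus Control they ran from -0.15 to 1.89 for Klf2, -0.045 to 0.32 for Ccr7 and -0.074 to 0.045 for Satb1, which was 0.083 with a pseudocount at the median, 0.19 after quantile normalization and 0.11 with no filter. The cause of these turns was not tested, except that the ends without a Control array come from a single array standing for that group.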
